A study of Mus musculus with 8 samples.

Results

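The 10 genes Slc2a1, Slc2a4, Slc16a1, Ldha, Ldhb, Mpc1, Mpc2, Pdk1, Pdk2 and Pdk4 carry glucose and lactate into a heart cell, convert lactate and pyruvate into each other, and let pyruvate into the mitochondrion or hold it back. They were chosen by gene name from the 54532 genes of a table of FPKM values (reads scaled by gene length and by the library's total), and all 10 were found there. Each also passed the filter for testing, a mean of at least 1 FPKM over the 8 libraries, as did 13029 genes in all. The libraries were made from poly-A RNA of whole hearts taken from mice at postnatal day 4. In 4 of them, called cHET, the heart carried 1 floxed allele of Mrps5, the gene for a mitochondrial ribosomal protein, together with Cre driven by the Myh6 promoter (Mrps5 fl/+;Myh6-Cre). The other 4, called control, came from littermates with the floxed allele and without Cre (Mrps5 fl/+). The series calls the 4 hearts of a group biological replicates. Cre under the Myh6 promoter acts in cardiomyocytes, so other heart cells keep both alleles, and with no group that has Cre alone, an effect of Cre itself and that of losing the allele cannot be told apart.

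Glucose enters muscle cells through the carriers GLUT1 (Slc2a1), which sits in the plasma membrane at rest, and GLUT4 (Slc2a4), which insulin brings to the surface from inner vesicles. Lactate, which newborn hearts take up readily, crosses the membrane through MCT1 (Slc16a1), and lactate dehydrogenase, a tetramer of A (Ldha) and B (Ldhb) subunits, turns it into pyruvate and back. Pyruvate then passes the inner mitochondrial membrane through a carrier of 2 different subunits (Mpc1 and Mpc2) and is oxidised by the pyruvate dehydrogenase complex, which the kinases Pdk1 to Pdk4 switch off and phosphatases switch on. The heart shifts in the first weeks after birth from glucose and lactate toward fatty acids.

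For none of the 10 genes did a difference between cHET and control hearts pass the test. With limma on log2(FPKM + 1), 0 of 10 passed an adjusted p of 0.05, where 0.0230% of all tested genes did (3 genes, all higher in cHET). Limma gave 0 of 10 at an unadjusted p under 0.05, against a background of 8.95%. In FPKM as deposited, for 0 of 10 did the 4 cHET values lie wholly above or below the 4 control values, against a background of 4.74%. Overlap was not examined after rescaling libraries to the same sum. A test on rebuilt reads with limma voom also called 0 of 10, with the same background of 0.0230%. Mean levels were higher in cHET for 7 genes and lower for 3 (Mpc2, Pdk2 and Pdk4), and the median log2 fold change was 0.095, beside 0.0086 over all tested genes, of which 52.1% lay above 0. The adjusted p of the 10 genes ran from 0.602 for Slc2a4 to 0.915 for Pdk2. In whole hearts, fewer cells of a type and less RNA per cell cannot be told apart, which holds for every value below.

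**Figure D1:**
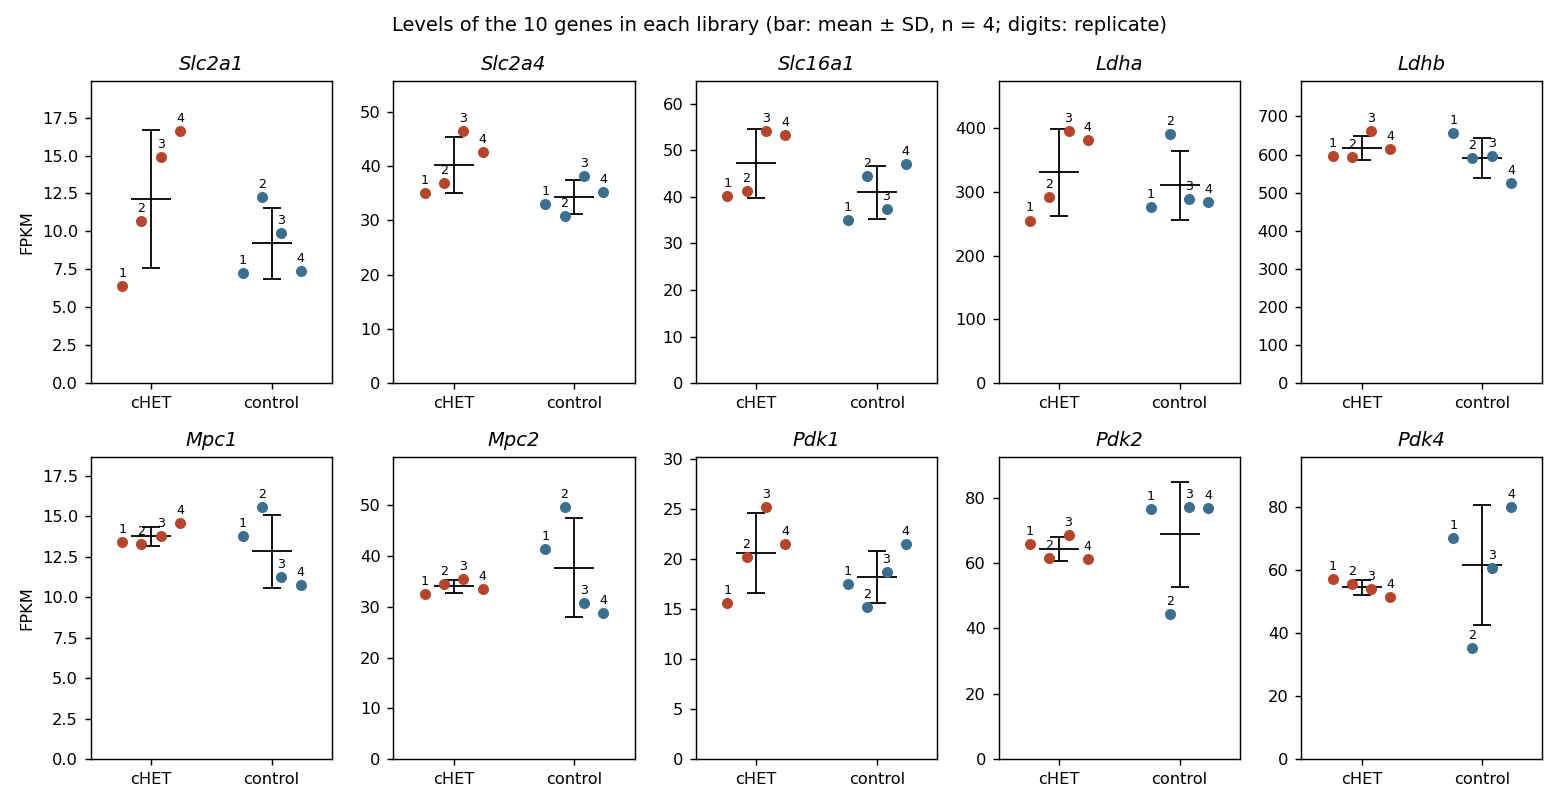
FPKM of the 10 genes in each library, cHET left and control right, with 1 point per library, its replicate number, and the mean ± SD of 4. On FPKM as deposited, the groups overlap in every panel, and the cHET points of Mpc1, Mpc2, Pdk2 and Pdk4 all lie inside the range of the control points.

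Libraries held 15490622 to 19234777 reads assigned to genes, and hearts differed in sex and in markers of other cell types, which the labels do not give. By Xist and the Y-linked Ddx3y, 1 cHET heart (cHET 1) and 2 control hearts (control 1 and control 3) were male, and 3 cHET hearts and 2 control hearts were female. Summed markers of red cells were 1599 to 2545 FPKM in cHET and 1025 to 8424 FPKM in control, with the top value in control 2 (Hba-a1 3643 FPKM). Those of macrophages and leukocytes were 78.9 to 119 FPKM in cHET and 96.7 to 251 FPKM in control, again highest in control 2. All 11 tested of them (Lyz2 and C1qa among them) had log2 fold changes below 0. Limma called 0 of them, and 4 had an unadjusted p under 0.05, against 8.95% of all tested genes. Brown fat and fat cell markers summed to 29.0 to 42.6 FPKM in cHET and 24.7 to 62.0 FPKM in control. Most of this was Cidea, at 28.6 to 32.9 FPKM in cHET and 24.5 to 36.5 FPKM in control. Ucp1, the uncoupling protein of brown fat, was 17.8 FPKM in control 1 and 16.7 FPKM in control 2. It was 6.56 FPKM in cHET 2, 1.62 FPKM in cHET 4 and at most 0.286 FPKM in the other libraries. Atrial markers (Myl7, Nppa and others) were 241 FPKM in cHET 3, up to 5277 FPKM in the other cHET hearts, and 1459 to 5117 FPKM in control. All 4 of them had log2 fold changes below 0, with 0 at an unadjusted limma p under 0.05. The cardiomyocyte markers, with all 10 genes at 1 FPKM or more, summed to 18700 to 22950 FPKM in cHET and 20110 to 22380 FPKM in control, led by Actc1 and Myl2. Of these 10, 3 lay above 0 and 7 below. Limma called 0, with 1 of 10 at an unadjusted p under 0.05, against 8.95% of all tested genes. The groups did not overlap for 1 of 10, against 4.74% of all tested genes (Pln, named afterwards, 194 to 292 FPKM in cHET and 305 to 439 FPKM in control). Endothelial markers (Fabp4, Eng) summed to 383 to 429 FPKM in cHET and 410 to 453 FPKM in control. Limma called 0 of 8, with 3 at an unadjusted p under 0.05, against 8.95% of all tested genes. The groups did not overlap for 1 of 8, against 4.74% of all tested genes (Emcn, named afterwards, 8.68 to 9.28 FPKM in cHET and 10.6 to 15.6 FPKM in control). Those of fibroblasts (Col3a1, Col1a1) summed to 467 to 757 FPKM in cHET and 511 to 761 FPKM in control. All 8 had log2 fold changes below 0 (median -0.183), with 0 at an unadjusted limma p under 0.05. Mrps5 itself was 6.84, 7.12, 6.995 and 7.68 FPKM in cHET 1 to 4, and 11.6, 6.27, 10.1 and 5.15 FPKM in control 1 to 4 (limma, log2 fold change -0.13, SE 0.208, adjusted p = 0.849), so that the libraries labelled control 2 and control 4 lay below every library labelled cHET.

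By level, with the authors' lengths, the lactate dehydrogenases stood far above the rest. Ldhb averaged 604 FPKM over the 8 libraries, which placed it 64th among the tested genes, and Ldha averaged 320 FPKM, in place 143. Below them came Pdk2 at 66.5 FPKM, Pdk4 at 57.9, Slc16a1 at 44.1, Slc2a4 at 37.2, Mpc2 at 35.9, Pdk1 at 19.4, Mpc1 at 13.3 and Slc2a1 at 10.7 FPKM. The ranges over libraries of Ldhb, Ldha and Pdk2 did not meet, nor did those of Mpc2 and Pdk1, while every other pair of neighbours in this order overlapped. Levels between genes rest on the length the authors divided by, which was 7344 bases for Mpc2, although its principal transcript in GENCODE M21 has 1025 bases. With the principal transcript's length, Mpc2 would average 257 FPKM, Ldha 601 FPKM and Ldhb 727 FPKM. The comparison of groups within a gene does not depend on this length apart from the pseudocount.

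Among the glucose carriers, Slc2a1 (ENSMUSG00000028645, chromosome 4, 119108711 to 119137983, plus strand, on GRCm38 as all coordinates here) had the widest relative range of the 10 genes. It was 6.37, 10.7, 14.9 and 16.6 FPKM in cHET 1 to 4, and 7.27, 12.2, 9.91 and 7.40 FPKM in control 1 to 4. The lowest and the highest library were thus both cHET, 2.60-fold apart, and all 4 control values lay between them. The means were 12.1 ± 4.57 FPKM in cHET and 9.20 ± 2.36 FPKM in control (SD, n = 4), which is 0.32 as a log2 fold change (SE 0.271, 95% interval -0.30 to 0.93; limma, adjusted p = 0.720). Without cHET 1 it was 0.57 (limma, adjusted p = 0.487) and without cHET 4 it was 0.15 (limma, adjusted p = 0.945). Counting error on its 382 to 1010 reads was at most 5.12%, against a coefficient of variation of 34.8% over the 8 libraries.

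Slc2a4 (ENSMUSG00000018566, chromosome 11, 69942539 to 69948188, minus strand) had the smallest p of the 10 genes. It was 34.98, 36.9, 46.4 and 42.5 FPKM in cHET 1 to 4, and 32.9, 30.8, 38.1 and 35.3 FPKM in control 1 to 4. Only cHET 3 and cHET 4 exceeded the highest control. The means were 40.2 ± 5.21 FPKM in cHET and 34.3 ± 3.16 FPKM in control (SD, n = 4), which is 0.22 as a log2 fold change (SE 0.113, 95% interval -0.036 to 0.47; limma, unadjusted p = 0.0843, adjusted p = 0.602). On the fold scale the interval reached from 0.975 to 1.39. Skeletal muscle, another site of GLUT4, has markers (Ckm, Acta1 and others) that summed to 428 to 559 FPKM in cHET, with cHET 3 and cHET 4 at the top, and 382 to 440 FPKM in control. Most of that sum was Ckm, at 292 to 439 FPKM in cHET and 300 to 388 FPKM in control (log2 fold change -0.0014; limma, adjusted p = 0.997). Of 8 such markers 5 were tested, with 3 above 0 and 2 below, and 0 were called by limma. The groups did not overlap for 2 of the 5, both higher in cHET, against 4.74% of all tested genes. These were Acta1, which newborn heart muscle also expresses, at 89.8 to 167 FPKM in cHET and 19.9 to 73.6 FPKM in control (limma, adjusted p = 0.345), and Tnni2, named after its values were seen, at 7.004 to 7.58 FPKM in cHET and 1.96 to 4.18 FPKM in control (limma, adjusted p = 0.203). The skeletal myosins Myh1 and Myh4, also named afterwards, were at most 0.0585 FPKM in any library, and the part of these markers in Slc2a4 was not tested. GLUT4 mRNA exceeded GLUT1 mRNA in every heart, by 2.56 to 5.49 times in cHET and 2.51 to 4.77 times in control (per length as the authors give it; 3.28 to 7.03 times in cHET and 3.22 to 6.11 times in control by principal transcripts), and this ratio did not separate the groups (log2 ratio 1.81 ± 0.467 in cHET and 1.93 ± 0.419 in control, exact two-sided permutation test, p = 0.714, adjusted over 5 ratios 0.886).

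Of 11 other glucose carriers, 2 reached the filter. Slc2a8, an intracellular carrier, averaged 6.39 ± 0.160 FPKM in cHET and 7.12 ± 1.02 FPKM in control (SD, n = 4; limma, adjusted p = 0.690), and Slc2a10 stayed near 2 FPKM. Slc2a3, the GLUT3 carrier best known from neurons, was 0.739 to 1.18 FPKM in cHET and 0.607 to 0.752 FPKM in control and was not tested. Of 20 genes of GLUT4 traffic and insulin signalling 19 were tested, with 9 above 0 and 10 below, a median log2 fold change of -0.029, and 0 called by limma, 0 also at an unadjusted p under 0.05. The smallest p there belonged to Txnip, which holds back glucose uptake and promotes removal of GLUT1 from the surface. It averaged 175 ± 29.7 FPKM in cHET and 237 ± 66.8 FPKM in control (SD, n = 4; log2 fold change -0.41, SE 0.218; limma, adjusted p = 0.614). Its relative Arrdc4 had a log2 fold change of -0.24 and Tbc1d1, a brake on GLUT4 vesicles that insulin and exercise release, one of 0.22.

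The lactate carrier Slc16a1 (ENSMUSG00000032902, chromosome 3, 104638668 to 104658462, plus strand) was 40.1, 41.3, 54.1 and 53.2 FPKM in cHET 1 to 4, and 35.1, 44.6, 37.4 and 47.1 FPKM in control 1 to 4. As with Slc2a4, cHET 3 and cHET 4 lay above all controls while cHET 1 and cHET 2 lay among them. The means were 47.2 ± 7.49 FPKM in cHET and 41.0 ± 5.71 FPKM in control (SD, n = 4; log2 fold change 0.19, SE 0.140, 95% interval -0.12 to 0.51; limma, adjusted p = 0.679). Slc16a3, which encodes MCT4, the carrier that glycolytic cells use to release lactate, was much lower, at 4.48, 6.76, 8.16 and 13.4 FPKM in cHET 1 to 4, and 3.24, 6.71, 5.17 and 3.84 FPKM in control 1 to 4. Its log2 fold change (0.63, SE 0.289; limma, adjusted p = 0.572) was larger than that of any of the 10 genes, with cHET 4 highest. Bsg, the chaperone that brings both carriers to the membrane, averaged 476 ± 40.9 FPKM in cHET and 522 ± 60.7 FPKM in control (SD, n = 4; limma, adjusted p = 0.756). Of 9 such carriers and chaperones 5 were tested, 2 above 0 and 3 below, with 0 called by limma and 0 at an unadjusted p under 0.05.

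Ldha (ENSMUSG00000063229, chromosome 7, 46841475 to 46855627, plus strand), the subunit that prevails in glycolytic tissue, was 255, 291, 395 and 382 FPKM in cHET 1 to 4, and 276, 391, 289 and 284 FPKM in control 1 to 4. In control, hearts 1, 3 and 4 lay within 276 to 289 FPKM and control 2, the heart with the highest red cell and leukocyte markers, stood apart at the level of cHET 3 and cHET 4. The part of those markers in this value was not tested. All FPKM of a library also summed highest in control 2 (467217). Its distance from the other controls was not examined after rescaling to a common sum. Group means were 331 ± 68.2 FPKM in cHET and 310 ± 54.4 FPKM in control (SD, n = 4; log2 fold change 0.084, SE 0.181, 95% interval -0.32 to 0.49; limma, adjusted p = 0.888). Ldhb (ENSMUSG00000030246, chromosome 6, 142490249 to 142507957, minus strand), the subunit that prevails in the adult heart, varied least of the 10 genes, at 594 to 661 FPKM in cHET and 524 to 655 FPKM in control. It averaged 617 ± 30.7 FPKM in cHET and 591 ± 53.5 FPKM in control (SD, n = 4; log2 fold change 0.065, SE 0.119, 95% interval -0.20 to 0.33; limma, adjusted p = 0.867).

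The balance of the subunits varied more among hearts than between groups. By the authors' gene lengths, Ldhb FPKM was 1.61 to 2.34 times Ldha FPKM in cHET and 1.51 to 2.37 times in control. By the lengths of the principal transcripts it was 1.04 to 1.503 times in cHET and 0.969 to 1.52 times in control, so that Ldhb was above Ldha in 7 of 8 hearts and below it in control 2. On the log2 scale, with the authors' lengths, the ratio was 0.92 ± 0.252 in cHET and 0.94 ± 0.275 in control (SD, n = 4; exact two-sided permutation test, p = 0.886, adjusted over 5 ratios 0.886). It was lowest in control 2, at 0.59, and next lowest in cHET 4 and cHET 3, at 0.69 and 0.74. Pseudogenes at least 95% identical to Ldha took at most 15 reads in a library and the one matching Ldhb at most 24, beside 14206 to 21934 reads for Ldha and 13486 to 18603 for Ldhb.

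The carriers and Ldha were followed across single hearts because several shared their highest libraries. Slc2a4, Slc16a1, Ldha, Ldhb and Pdk1 were all highest in cHET 3, and Slc2a1 was highest in cHET 4 with cHET 3 next. No other heart was highest for more than 2 of the 10 genes. Control 2 was lowest for 4 (Slc2a4, Pdk1, Pdk2 and Pdk4) and highest for 2 (Mpc1 and Mpc2), and control 4 was lowest for 3 (Ldhb, Mpc1 and Mpc2). The atrial markers were lowest in cHET 3, and their part in its high values was not tested. By sex, Slc16a1 was 35.1 to 40.1 FPKM in the 3 male hearts and 41.3 to 54.1 FPKM in the 5 female hearts, and cHET 3 and cHET 4 were both female. It was the only one of the 10 genes whose male and female ranges did not overlap. The share of all tested genes with such a split was not computed. With sex as a covariate, the log2 fold change of cHET over control was 0.19 for Slc2a1 (limma, adjusted p = 0.845), 0.12 for Slc16a1 (limma, adjusted p = 0.811) and 1.46e-05 for Ldha (limma, adjusted p = 1), against 0.32, 0.19 and 0.084 without it. It was further from 0 for Ldhb (0.082 against 0.065) and Mpc2 (-0.13 against -0.11). For the rest it was 0.21 against 0.22 (Slc2a4), 0.094 against 0.106 (Mpc1) and 0.11 against 0.16 (Pdk1). Pdk2 stood at -0.0019 against -0.062 and Pdk4 at -0.062 against -0.11.

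**Figure D2:**
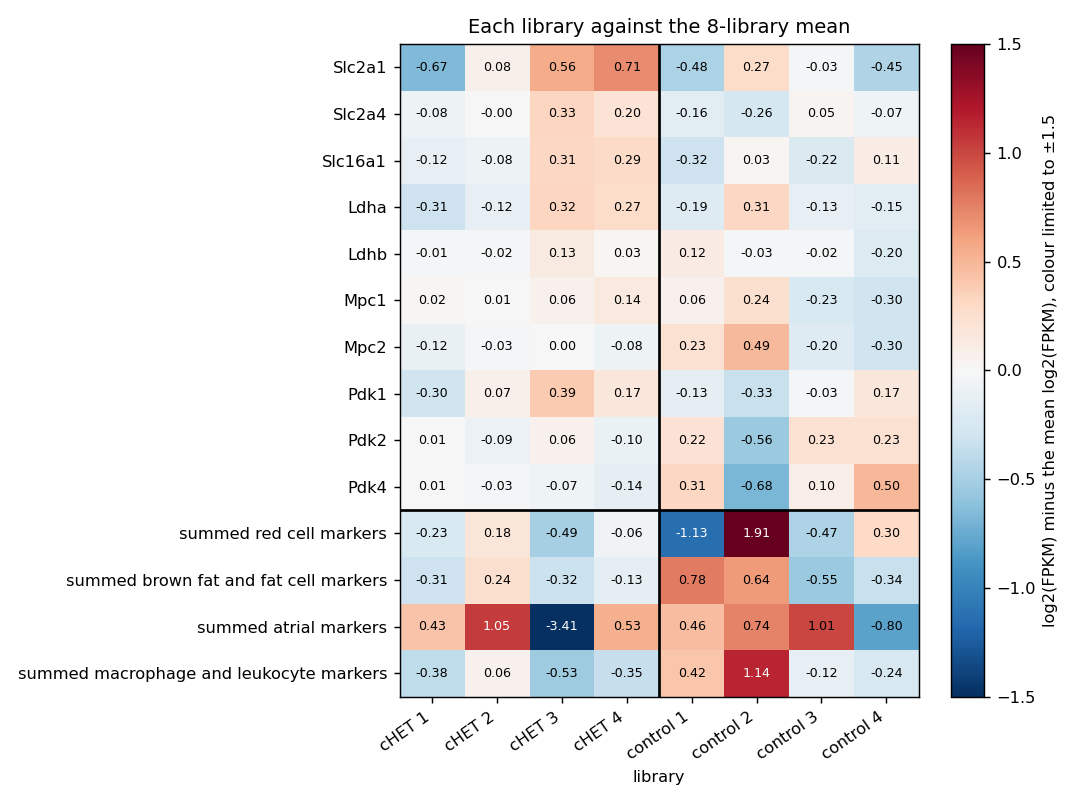
Each library against the mean of all 8, as log2(FPKM) minus its mean, for the 10 genes (upper rows) and for the summed markers of 4 other cell types (lower rows), cHET in the left columns and control in the right. Values for Slc2a1, Slc2a4, Slc16a1 and Ldha are positive in both cHET 3 and cHET 4, while control 2 has the lowest Pdk2 and Pdk4 and the highest red cell markers.

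The promoters of Slc2a1, Slc16a1 and Ldha are shown as those of the 9 listed with the most matches, a choice made after the matches were seen. Ldhb, Mpc1 and Pdk1, which were likewise above their means in cHET 3 and cHET 4, had 1 place each. All of them hold the letters ACGTG or GCGTG, the core of the element that hypoxia-inducible factors bind, searched on both strands in the 250 bases before the start of each gene in RefSeq (GRCm38.p6), with overlapping matches joined. A core was present in the first listed promoter of all 9 genes with an entry (Slc2a4 has none) and in 57.7% of the 9228 promoters of tested genes. Base composition differs too, since G and C made up a median of 66.4% of these 9 promoters and 60.0% of those of tested genes. Slc2a1 had 2 such places (2 or more were in 24.2% of tested promoters), Slc16a1 and Ldha had 3 each (3 or more were in 9.01%), and the other 6 genes had 1 each. The sequence CACGTG, which contains ACGTG on both strands and is also bound by E-box factors, occurred 1 time each in Slc16a1 and Pdk2, 2 times in Ldha, and in 8.47% of the promoters of tested genes. These are matches of letters and say nothing about binding in these hearts. The sequences run 5′ to 3′ on the gene's own strand, here plus for all, at chr4:119108495-119108744 for Slc2a1 (its end reaches into the span given above, which starts at 119108711), chr3:104638414-104638663 for Slc16a1 and chr7:46845554-46845803 for Ldha (inside the span the table gives it, which starts at a more upstream transcript), with the matches in capitals.
Slc2a1: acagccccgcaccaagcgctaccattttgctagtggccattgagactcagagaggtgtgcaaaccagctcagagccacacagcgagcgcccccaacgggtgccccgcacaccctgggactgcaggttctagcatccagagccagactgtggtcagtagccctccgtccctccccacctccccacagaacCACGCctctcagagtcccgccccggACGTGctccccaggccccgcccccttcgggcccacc
Slc16a1: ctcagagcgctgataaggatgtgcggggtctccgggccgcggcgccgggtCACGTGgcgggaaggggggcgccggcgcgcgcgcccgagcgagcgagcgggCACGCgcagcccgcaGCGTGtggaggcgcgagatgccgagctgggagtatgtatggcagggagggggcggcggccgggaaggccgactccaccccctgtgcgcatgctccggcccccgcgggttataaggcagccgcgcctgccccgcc
Ldha: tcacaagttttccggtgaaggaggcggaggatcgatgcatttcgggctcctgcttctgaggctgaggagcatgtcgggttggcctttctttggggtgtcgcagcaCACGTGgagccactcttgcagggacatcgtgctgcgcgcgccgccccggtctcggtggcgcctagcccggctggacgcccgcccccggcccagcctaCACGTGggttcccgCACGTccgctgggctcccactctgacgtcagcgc

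Other genes that hypoxia-inducible factors switch on were divided in direction. Of 17 tested, 9 lay above 0 and 8 below, with a median log2 fold change of 0.025, and limma called 0 of them, 0 also at an unadjusted p under 0.05. Hk2, a hexokinase of insulin-sensitive muscle, averaged 21.7 ± 3.03 FPKM in cHET and 17.8 ± 4.33 FPKM in control (SD, n = 4; log2 fold change 0.29, SE 0.169; limma, adjusted p = 0.643). Ndrg1 and P4ha2, a collagen prolyl hydroxylase, had log2 fold changes of -0.16 and -0.15. Of 21 regulators of the 10 genes, 15 lay above 0 and 6 below, with a median of 0.037, and limma called 0, again with 0 at an unadjusted p under 0.05. Those with the smallest p were Esrrg, an orphan nuclear receptor of oxidative metabolism (log2 fold change 0.29), Pparg (-0.16) and Ppargc1b, a coactivator of mitochondrial genes (0.42), whose limma adjusted p lay between 0.628 and 0.643.

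By FPKM, the 2 subunits of the pyruvate carrier varied less among cHET hearts than among control hearts. Mpc1 (ENSMUSG00000023861, chromosome 17, 8282904 to 8297661, plus strand) was 13.4, 13.3, 13.8 and 14.6 FPKM in cHET 1 to 4, and 13.8, 15.6, 11.3 and 10.8 FPKM in control 1 to 4. Mpc2 (ENSMUSG00000026568, chromosome 1, 165460637 to 165481214, plus strand) was 32.6, 34.6, 35.5 and 33.4 FPKM in cHET 1 to 4, and 41.5, 49.7, 30.8 and 28.7 FPKM in control 1 to 4. In FPKM as deposited, control 2 was highest and control 4 lowest in both genes, with all cHET hearts between them. All FPKM also summed highest in control 2 (467217) and lowest in control 4 (353291). Rescaled to the same sum, the log2 fold change was 0.21 for Mpc1 (SE 0.0983; limma, adjusted p = 0.684). For Mpc2 it was then -0.013 (SE 0.115; limma, adjusted p = 0.967). The order and overlap of hearts were not examined on that scale. Mpc1 averaged 13.8 ± 0.585 FPKM in cHET and 12.9 ± 2.26 FPKM in control (SD, n = 4; log2 fold change 0.11, SE 0.115, 95% interval -0.15 to 0.37; limma, adjusted p = 0.769). Mpc2 averaged 34.0 ± 1.25 FPKM in cHET and 37.7 ± 9.77 FPKM in control (SD, n = 4; log2 fold change -0.11, SE 0.162, 95% interval -0.47 to 0.25; limma, adjusted p = 0.823). Without control 2 the sign of Mpc2 turned, to 0.031 (limma, adjusted p = 0.973), and without control 1 and control 2, the hearts with the highest Ucp1, it was 0.19 (limma, adjusted p = 0.588) and Mpc1 was 0.30 (limma, adjusted p = 0.425).

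Set against each other within a heart, the subunits gave the one ratio of 5 whose groups did not overlap. Mpc1 was 0.385 to 0.437 times Mpc2 in cHET and 0.314 to 0.375 times Mpc2 in control (FPKM, authors' lengths). The log2 ratio was -1.30 ± 0.0834 in cHET and -1.53 ± 0.119 in control (SD, n = 4), a difference of 0.23. The exact two-sided permutation test gave p = 0.0286, the smallest that 4 against 4 hearts allow, and 0.143 after adjustment over the 5 ratios, so the difference did not pass. It also depended on how reads of Mpc1 are counted.

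Mpc1 shares its coding sequence with a processed pseudogene, Mpc1-ps (ENSMUSG00000091498, chromosome 12, 110858565 to 110858894, minus strand, inside the span of Zfp839). Over 330 bases the pseudogene and the coding sequence of Mpc1 differ at 1 base, an identity of 99.7%. The first 150 bases of each are shown to make clear how little separates them for a read, from GENCODE M21 transcripts, 5′ to 3′ on the strand of each gene, with the 1 differing base in capitals.
Mpc1: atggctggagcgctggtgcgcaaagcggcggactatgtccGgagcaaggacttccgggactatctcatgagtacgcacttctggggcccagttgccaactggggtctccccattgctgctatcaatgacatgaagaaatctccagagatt
Mpc1-ps: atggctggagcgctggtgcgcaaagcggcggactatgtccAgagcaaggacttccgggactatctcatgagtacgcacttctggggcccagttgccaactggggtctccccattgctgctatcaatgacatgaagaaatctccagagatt

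The pseudogene was assigned 836, 1352, 1086 and 1115 reads in cHET 1 to 4, and 1015, 1195, 793 and 895 reads in control 1 to 4. Mpc1 was assigned 477, 553, 461 and 528 reads in cHET 1 to 4, and 447, 524, 370 and 367 reads in control 1 to 4. The pseudogene thus held 63.7% to 71.0% of the reads of the pair in every library, and the values of Mpc1 given above leave these out. The deposited values do not tell which locus a shared read came from. With the reads of both added, a choice made after the values were seen, Mpc1 had a log2 fold change of 0.057 (limma, adjusted p = 0.898) and the Mpc1 to Mpc2 difference was 0.17 on the log2 scale (exact two-sided permutation test, p = 0.114). Mpc1 also overlaps 4930506C21Rik, with 17 to 51 reads, and whether counting used strand is not given in the sources used here.

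**Figure D3:**
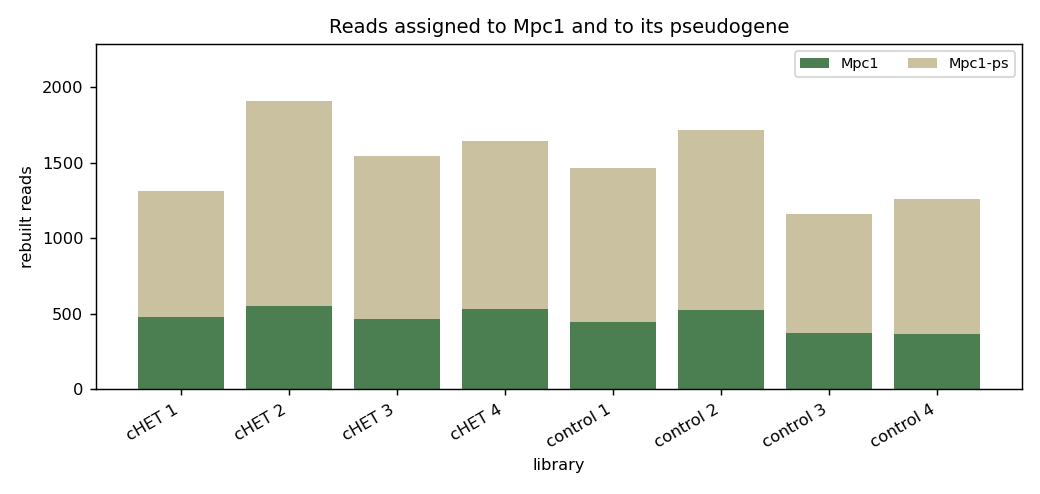
Reads rebuilt from FPKM and gene length that were assigned to Mpc1 (lower part of each bar) and to its pseudogene Mpc1-ps (upper part), per library, cHET left and control right. The pseudogene part is the larger in every library, at 63.7% to 71.0% of the bar.

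The kinases that switch off pyruvate dehydrogenase showed no common direction. Pdk1 (ENSMUSG00000006494, chromosome 2, 71873224 to 71903858, plus strand), the hypoxia-responsive member, was 15.6 to 25.2 FPKM in cHET and 15.2 to 21.5 FPKM in control, with means of 20.6 ± 3.97 FPKM in cHET and 18.2 ± 2.61 FPKM in control (SD, n = 4; log2 fold change 0.16, SE 0.150, 95% interval -0.18 to 0.50; limma, adjusted p = 0.737). Pdk2 (ENSMUSG00000038967, chromosome 11, 95026258 to 95041354, minus strand), the widely expressed member, was 65.8, 61.5, 68.6 and 61.1 FPKM in cHET 1 to 4, and 76.4, 44.5, 77.1 and 76.9 FPKM in control 1 to 4. In control, 3 hearts lay above all cHET hearts, and control 2 lay below them. The means were 64.3 ± 3.60 FPKM in cHET and 68.7 ± 16.2 FPKM in control (SD, n = 4; log2 fold change -0.062, SE 0.176, 95% interval -0.46 to 0.33; limma, adjusted p = 0.915).

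Pdk4 (ENSMUSG00000019577, chromosome 6, 5483351 to 5496309, minus strand), which fasting and fatty acids induce through PPAR and FoxO factors, had its hearts laid out in the same way. It was 57.0, 55.5, 54.0 and 51.3 FPKM in cHET 1 to 4, and 70.1, 35.2, 60.6 and 79.8 FPKM in control 1 to 4. Again control 2 was lowest and the other controls were above all cHET hearts. Pdk4 averaged 54.4 ± 2.43 FPKM in cHET and 61.5 ± 19.2 FPKM in control (SD, n = 4; log2 fold change -0.11, SE 0.219, 95% interval -0.61 to 0.38; limma, adjusted p = 0.873). Without control 2 the log2 fold changes were -0.26 for Pdk2 (limma, unadjusted p = 0.0161, adjusted p = 0.450) and -0.35 for Pdk4 (limma, unadjusted p = 0.0107, adjusted p = 0.415). Red cell and leukocyte markers were highest in control 2, and their part in its low kinase values was not tested.

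Pdk3, the kinase with the lowest level here, averaged 12.7 ± 2.87 FPKM in cHET and 12.4 ± 0.945 FPKM in control (SD, n = 4; limma, adjusted p = 0.989). Pdk4 made up 35.9 ± 2.52% of the summed Pdk1 to Pdk4 FPKM in cHET and 37.6 ± 4.20% in control (SD, n = 4; exact two-sided permutation test, p = 0.514, adjusted over 5 ratios 0.857). Against Pdha1, the subunit they phosphorylate, the summed kinases stood at a log2 ratio of 0.39 ± 0.201 in cHET and 0.69 ± 0.238 in control (SD, n = 4; exact two-sided permutation test, p = 0.114, adjusted over 5 ratios 0.286). This ratio was lowest in cHET 3, at 0.17, and highest in control 1, at 1.02, and the groups overlapped.

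**Figure D4:**
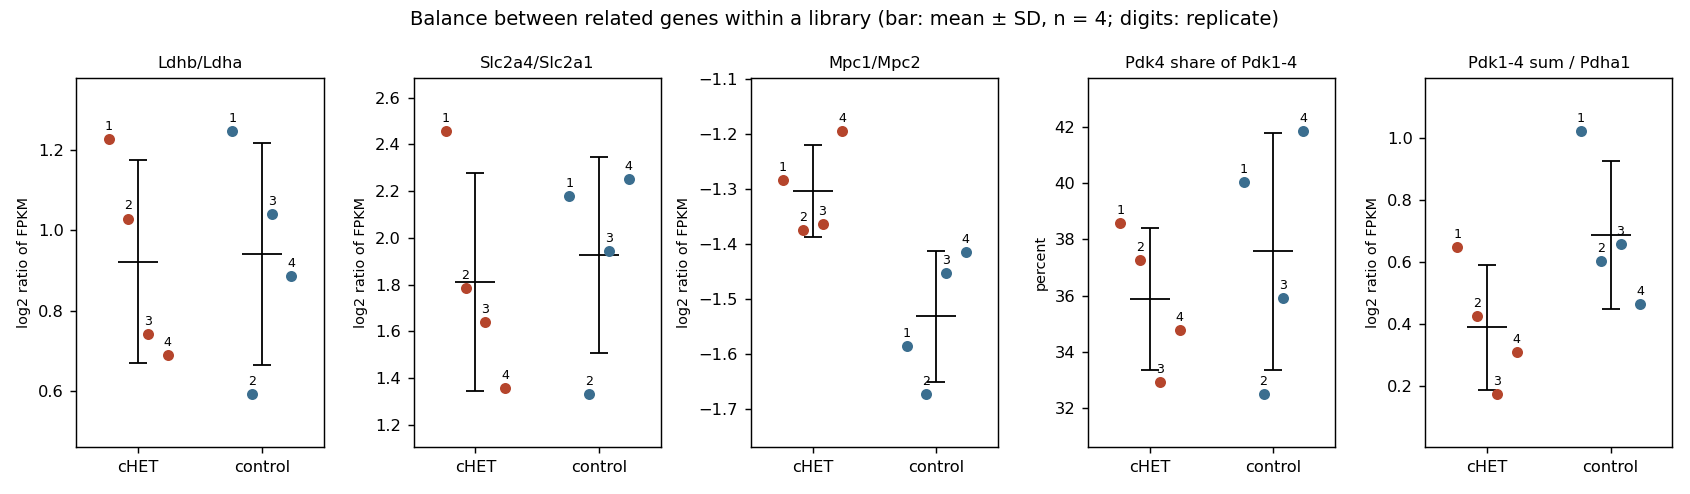
The 5 ratios between related genes within each library (log2 ratios of FPKM, and percent for the Pdk4 share), cHET left and control right, with 1 numbered point per library and the mean ± SD of 4. The axes do not start at 0. The groups are apart for Mpc1/Mpc2 alone, at -1.30 in cHET and -1.53 in control, and overlap in the other panels.

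Downstream of the carrier, all 5 genes of the pyruvate dehydrogenase complex were tested, with 4 above 0 and 1 below, a median log2 fold change of 0.19, and 0 called by limma (0 at an unadjusted p under 0.05). Pdhx, which binds the E3 subunit into the complex, averaged 25.3 ± 3.69 FPKM in cHET and 21.4 ± 1.15 FPKM in control (SD, n = 4; log2 fold change 0.23, SE 0.109; limma, adjusted p = 0.585). Dlat, the E2 subunit, had a log2 fold change of 0.19 and Pdha1 one of 0.24, and both were highest in cHET 3, as were Pdk1, Ldha and the carriers Slc2a4 and Slc16a1. The phosphatase Pdp1, which restores activity, averaged 7.96 ± 1.85 FPKM in cHET and 8.04 ± 1.45 FPKM in control (SD, n = 4; limma, adjusted p = 0.971), while the phosphatase Pdp2 was near 1 FPKM and the regulatory subunit Pdpr had a log2 fold change of 0.24. Of 7 tested enzymes among 8 that use pyruvate in other ways, 5 lay above 0 and 2 below, with 0 called by limma and 0 at an unadjusted p under 0.05. Those with the smallest p were Gpt and Gpt2, the alanine transaminases, with log2 fold changes of 0.10 and 0.17, and the malic enzyme Me2 with 0.22. Of 4 further lactate dehydrogenase genes only Uevld was tested, at 2.53 ± 0.304 FPKM in cHET and 2.26 ± 0.111 FPKM in control (SD, n = 4; limma, adjusted p = 0.706).

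PPAR and FoxO target genes form a programme of the fasted heart, to which Pdk4 belongs. Of 15 tested, limma called 0; 13 had a log2 fold change below 0 and 2 above, where 52.1% of all tested genes lay above, and the median was -0.21. At an unadjusted p under 0.05 there were 4 of 15, against 8.95% of all tested genes, and 1 of 15 had groups that did not overlap, against 4.74%. Ucp3, a mitochondrial carrier induced by fatty acids, was 13.3, 8.69, 7.49 and 6.48 FPKM in cHET 1 to 4, and 36.3, 12.4, 17.5 and 21.3 FPKM in control 1 to 4 (log2 fold change -1.14, SE 0.307; limma, adjusted p = 0.357). The groups met only through cHET 1 and control 2. Plin5, a lipid droplet protein of oxidative tissue, was lower by mean in cHET (log2 fold change -0.33, SE 0.110; limma, adjusted p = 0.445), and so was the acyl-CoA thioesterase Acot1 (log2 fold change -0.53, SE 0.187; limma, adjusted p = 0.479). The fourth was Angptl4, named after its values were seen because it was the 1 gene of the list whose groups did not overlap, at 22.7 to 35.5 FPKM in cHET and 36.3 to 61.6 FPKM in control (log2 fold change -0.48; limma, adjusted p = 0.524). Control 1, with the highest brown fat markers, was highest for Ucp3, Plin5, Acot1 and Angptl4, and the part of those markers was not tested. Txnip, described above with GLUT4 traffic, is also on this list.

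Beyond the means, 4 of the 10 genes had a much larger SD in control than in cHET, on FPKM as deposited. The SD of log2(FPKM + 1) in control was 7.96 times that in cHET for Pdk4, 6.99 times for Mpc2, 4.89 times for Pdk2 and 4.13 times for Mpc1. Over all tested genes the median of this ratio was 1.41, and 69.1% of genes had the larger SD in control. The ratio of Pdk4 exceeded that of 99.0% of tested genes, that of Mpc2 98.5%, that of Pdk2 95.8% and that of Mpc1 93.7%. Slc2a1 lay on the other side, at 0.578, with 9.76% of genes below it. These are descriptions of 4 hearts a group, without a test, and they use FPKM as deposited. All FPKM of a library summed to 450265 in control 1 and 467217 in control 2, and to 353291 to 392047 in the others. With each library rescaled to the same sum (TPM), limma's SE fell to 0.0983 for Mpc1 and 0.115 for Mpc2, from 0.115 and 0.162. It rose to 0.270 for Pdk4 and 0.228 for Pdk2, from 0.219 and 0.176. Control 2, with the highest sum, was highest for Mpc1, and control 4, with the lowest sum, was lowest for it. The SD ratios were not computed on that scale, so the larger control SD of Mpc1 holds for FPKM as deposited only. For Pdk2 the spread in control rested on control 2 alone: without it (tried after the values were seen) the ratio was 0.0841, since the other 3 control hearts lay within 76.4 to 77.1 FPKM. Without control 2 the ratio was 5.32 for Mpc2, 3.15 for Mpc1 and 3.06 for Pdk4, beside a median of 1.19 over all tested genes.

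**Figure D5:**
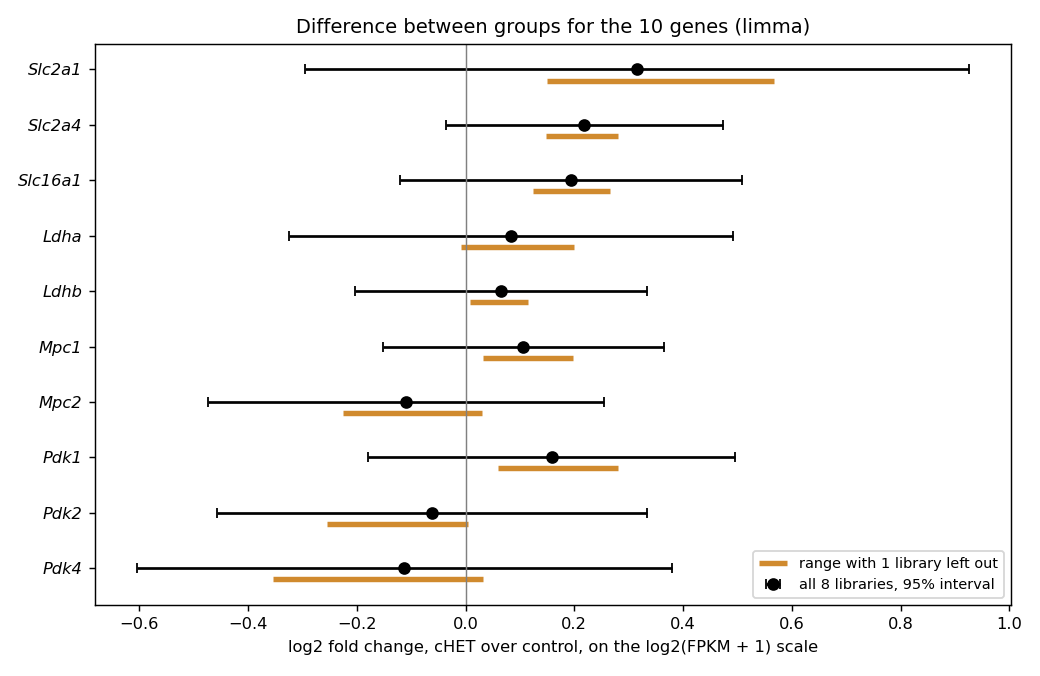
Log2 fold change of cHET over control for the 10 genes on the log2(FPKM + 1) scale, with the 95% interval from limma (black) and the range of values when each of the 8 libraries is left out in turn (orange). Every black interval crosses 0, and the orange range crosses 0 for Ldha, Mpc2, Pdk2 and Pdk4.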

How the data were processed

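The deposited table gives, per the file headers, 1 FPKM value per gene and library and the gene length used by the authors. The tools listed, per the submitters' processing notes, are DESeq2 1.20.0, featureCounts 1.5.0-p3 and HISAT2 2.0.5, and the build is mm9; the start and end of 98.3% of gene IDs matched GENCODE M21 on GRCm38, so coordinates are given as GRCm38. FPKM times length was a whole number of reads for 100% of values within 0.05 reads, which gave reads per gene.

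The 10 genes, and the lists of related genes and cell type markers, were chosen with earlier results of these data known. Genes with a mean of at least 1 FPKM entered limma 3.58.1 under R 4.3.3 as log2(FPKM + 1) (lmFit, then eBayes, trend and robust both on), two-sided, 4 cHET against 4 control libraries, with no covariate and Benjamini-Hochberg adjustment over 13029 genes at 0.05. A fold change on this scale understates that of low genes. The 5 ratios within a library were compared by exact permutation (scipy 1.17.1). The fit was tested on simulated data. Named besides the 10 were fixed partners, the 3 genes of each related list with the smallest p, and the 2 of each marker list with the highest level; the result of 1 marker list is not reported here. Near-identical genes were found with blastn 2.17.0 (at least 95% identity over at least 100 bases). Alternatives were other pseudocounts, filters, scalings, variance models, library weights, voom on rebuilt reads, covariates, a replicate block and left-out libraries. No library was left out of the main comparison.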

Additional observations from a re-analysis of the deposited data

Results flagged for a closer look

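In 2 of 30 groups of 4 values examined for a library far from the rest, the gap to the nearest library took up more of the range than Dixon's critical value at the 95% level, and chance alone gives about 1 such group in 20. Both concerned control 2 and FPKM as deposited. All FPKM summed to 467217 in control 2, 450265 in control 1, 377345 in control 3 and 353291 in control 4. The flags were not examined after rescaling libraries to the same sum, so they hold for this scale only. Ldha was 391.3 FPKM in control 2, beside 276.3 to 289.1 FPKM in the other control hearts, a gap of 0.889 of the range. Pdk2 was 44.51 FPKM in control 2, beside 76.41 to 77.1 FPKM in the other control hearts, a gap of 0.979 of the range. The same heart had the highest red cell markers, summed to 8424 FPKM against at most 2761 FPKM in any other library, and their part in these values was not tested.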

How the results depend on the processing

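None of the 10 genes passed the adjusted test in the main analysis or in any of 23 alternatives, where the smallest limma adjusted p of any of them was 0.311 (Mpc1 with library weights). Slc2a1, Slc2a4, Slc16a1, Ldhb, Mpc1 and Pdk1 kept a positive log2 fold change in each alternative, but their size depended on single libraries: with 1 left out it was 0.15 to 0.57 for Slc2a1, 0.15 to 0.28 for Slc2a4, 0.12 to 0.27 for Slc16a1, 0.0085 to 0.12 for Ldhb, 0.032 to 0.20 for Mpc1 and 0.060 to 0.28 for Pdk1 (0.018 without control 1 and control 2). Over all tested genes the count of 3 became 11 with library weights and 1 with the replicate block. Rescaling to TPM moved the median log2 fold change of all genes to 0.10. There Pdk2 turned to 0.036, and Mpc1 rose to 0.21 (limma, unadjusted p = 0.0599, adjusted p = 0.684). Scaled without mtDNA-encoded genes, Pdk2 was 0.0008003. Whether groups overlapped was judged on FPKM only, not after rescaling. Mpc2 turned to 0.071 with library weights, to 9.251e-05 with log2(Ucp1 + 1) as a covariate and to 0.19 without control 1 and control 2. With each library left out in turn the log2 fold change ran from -0.0091 to 0.20 for Ldha, -0.23 to 0.031 for Mpc2, -0.26 to 0.0043 for Pdk2 and -0.35 to 0.032 for Pdk4. The cause of these changes was not tested.

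The difference in log2(Ldhb/Ldha) ran from -0.14 to 0.082 and that in log2(Slc2a4/Slc2a1) from -0.33 to 0.034 with 1 library left out. For log2(Mpc1/Mpc2) it was 0.18 to 0.27, with an exact permutation p of 0.0286 without any 1 control library and 0.0571 without any 1 cHET library, where 4 against 3 allow 0.0286 at the least. It was 0.13 (exact permutation p = 0.133) without control 1 and control 2, where 4 against 2 libraries cannot go below 0.0667, and 0.17 (exact permutation p = 0.114) with the reads of Mpc1-ps added, chosen after seeing the data. With the replicate block (an exact sign-flip test over the labels' numbers) it was 0.23 with p = 0.125, the smallest that 4 pairs allow. Deviations of same-numbered libraries correlated at 0.286, 0.266, 0.0521 and 0.0572. Control 1, control 2 and control 3 each correlated best with the cHET library of their own number. However, cHET 3 correlated best with control 4 (0.344) and cHET 4 with control 2 (0.102). The labels give only replicate numbers, so the main test left the hearts unpaired, and whether the numbers mark pairs is not settled. With the block, 1747 genes had an unadjusted limma p under 0.05, against 1166 without it. Under the block the p of Slc2a4 was 0.0325 unadjusted and 0.330 adjusted (limma). Counting error was at most 5.22% for Mpc1 and 5.12% for Slc2a1, below their coefficients of variation over libraries of 12.04% and 34.8%.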
